A study of Mus musculus with 10 samples.

Results

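The Zfp genes are a large set of mouse genes named for zinc finger proteins, and the 98 described here are those that passed a signal threshold in embryos at 3.0 days post coitum. They were chosen by name (Zfp followed by a number, Zfp42 left out) and by signal: the brightest probe set of the gene, over all 10 arrays, had to reach a mean intensity of 100 on the linear scale. Of 290 such genes in the table, 98 met the threshold and 192 did not. Because the signal chose them, their levels are given as a description and support nothing. The rule itself made no use of the comparison between genotypes, but it was set with earlier results of these data known. A difference between genotypes can also carry a gene over the threshold: 89 of the 98 had a mean of at least 100 in both genotypes, 5 only in wild-type (WT) and 4 only in Klf5 knockout (KO) embryos.

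The study set 5 WT embryos against 5 embryos labelled Klf5 KO, all collected from the oviduct, with cDNA amplified from each single embryo and 1 Affymetrix array per embryo. Klf5 is a Kruppel-like zinc finger transcription factor that binds GC-rich and CACCC-type sequences and is needed for the trophectoderm, the outer layer of the blastocyst. The labels give no strain, litter, sex or deleted part of the gene and p-values here reflect only how these 10 embryos vary. Embryos are named WT1 to WT5 and KO1 to KO5.

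Many Zfp proteins carry tandem C2H2 fingers, each folded around a zinc ion, that read DNA base by base. A large subset also carries a KRAB domain, which recruits the corepressor Trim28 and through it histone and DNA methylation to retroelements and imprinted regions. Others bear the name for a zinc finger but act on RNA, ribosomes or protein turnover. In the preimplantation embryo this family is known for keeping imprints through the wave of demethylation and for holding retroelements silent.

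The brightest Klf5 probe set read 1096 to 4183 in the WT and 14.0 to 49.2 in the KO embryos, so each embryo followed its label. All 9 blastocyst markers had a mean of at least 100, against 0 of 8 measured cumulus and granulosa markers and 0 of 4 oviduct markers. Of 8 oocyte genes 2 (Gdf9 and Zp3) and of 6 blood genes 1 (Cd74) did. The summed signal of the 9 blastocyst markers differed with genotype and did not overlap (22942 to 49913 for WT, 16476 to 22627 for KO). Most of that lay in the trophectoderm keratins, with a mean intensity of 12894 against 1699 for Krt8 and of 9832 against 2375 for Krt18, WT first. The part of this shift in the Zfp results was not tested. The summed oocyte signal was 569 to 702 in the WT and 581 to 624 in the KO embryos. The bioB hybridisation control divided the arrays, at 8.36 to 8.95 log2 units on WT1 to WT3, KO1 and KO2 and at 6.16 to 6.69 on WT4, WT5 and KO3 to KO5. WT4 and WT5 stood somewhat apart among the WT embryos, with a median Zfp level of 7.54 and 7.46 on the log2(intensity + 16) scale against 7.81 to 7.89 in WT1 to WT3. Of the 50 Zfp genes named by rule, 24 had a difference that moved by over 1.5 times or turned without WT4 and WT5. No Zfp gene passed the test in that fit, which has fewer embryos, and so none of the 24 did. Some of these moves are given beside the gene. Each embryo is a bulk sample, so fewer cells of a type and less RNA per cell cannot be told apart.

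By limma, fitted over the whole table, 1 of the 98 Zfp genes, Zfp639, differed between the genotypes. Zfp639 encodes a C2H2 protein whose human counterpart, ZASC1, was described from a chromosomal region amplified in squamous cell carcinoma. Its intensity was 114, 102, 85.2, 75.4 and 89.8 in WT1 to WT5 and 219.7, 219.7, 274, 359.9 and 184 in KO1 to KO5. Every KO embryo lay above every WT embryo. On the log2(intensity + 16) scale, where the fold of a dim probe set comes out too small, it rose from 6.76 ± 0.20 to 8.03 ± 0.35 (SD, n = 5). The difference was 1.27 (SE 0.17, 95% interval 0.88 to 1.65), which is 2.40-fold, with an adjusted p = 0.0164 in limma. A two-sided exact permutation test over the 252 relabellings gave p = 0.00794, its smallest possible value, which full separation always gives. Of the 7267 genes with a brightest probe set of at least 100, 3.72% were so separated.

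The share of calls was close to that of all genes past the same signal threshold. Over the whole table, 0.367% of 23174 tested probe sets met an adjusted p of 0.05 (limma, Benjamini-Hochberg). Among the 7267 genes chosen by the same signal threshold 0.743% passed, against 1.02% (1 of 98) of the Zfp genes. The 7267 genes shared the threshold but were brighter, with a median of the mean intensity of 331, against 199 for the 98. The rise of Zfp639 rested on its only probe set, and its WT mean of 93.5 was under the threshold that its KO mean of 252 passed. That WT mean was near those of the brightest granulosa markers, Amh (85.7) and Foxl2 (83.1). It was also the only one called among the 212 Zfp genes, bright or dim, that were tested.

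The Zfp639 difference was 1.02 in the high-bioB arrays and 1.51 in the low-bioB arrays, and did not pass in either set alone (adjusted p = 0.237 and adjusted p = 0.140). With the bioB set as a block it was 1.26 and passed (adjusted p = 0.0316). Without WT4 and WT5 the difference was 1.17 and the call was lost (adjusted p = 0.0682). It passed whichever single embryo was left out, with adjusted limma p between 0.0155 and 0.0457.

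The upstream sequence of Zfp639 is shown because Klf5 binds GC-rich letters of this kind. In the 250 bases before the RefSeq start (GRCm38.p6, plus strand), the pattern CCNCNCCC, searched on both strands, occurred 4 times. Each match is in capitals, with 9 bases on either side, and begins 128, 109, 87 and 64 bases before the start.
Match 1, chr3:32510455-32510480: gctgttaggCCCCGCCCttagcatga
Match 2, chr3:32510474-32510499: agcatgaagCCACGCCCcctccatgc
Match 3, chr3:32510496-32510521: atgctcaggCCACGCCCtcatcctta
Match 4, chr3:32510519-32510544: ttagggttcCCGCCCCCcgtccccca

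The 4 matches lie on the strand of the gene, and neighbouring stretches share a few bases. Such matches were common: 45.9% of 32851 windows of this length held at least 1, and 10.7% held 4 or more. Among the 95 windows of the 75 Zfp genes found in the RefSeq table, 56.8% held at least 1 and 14.7% held 4 or more. The windows of Zfp746 and Zfp64 held 3 and 1, and both windows of Zfp219 held 0. A match is a description of the letters and not evidence of a bound site.

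**Figure D1:**
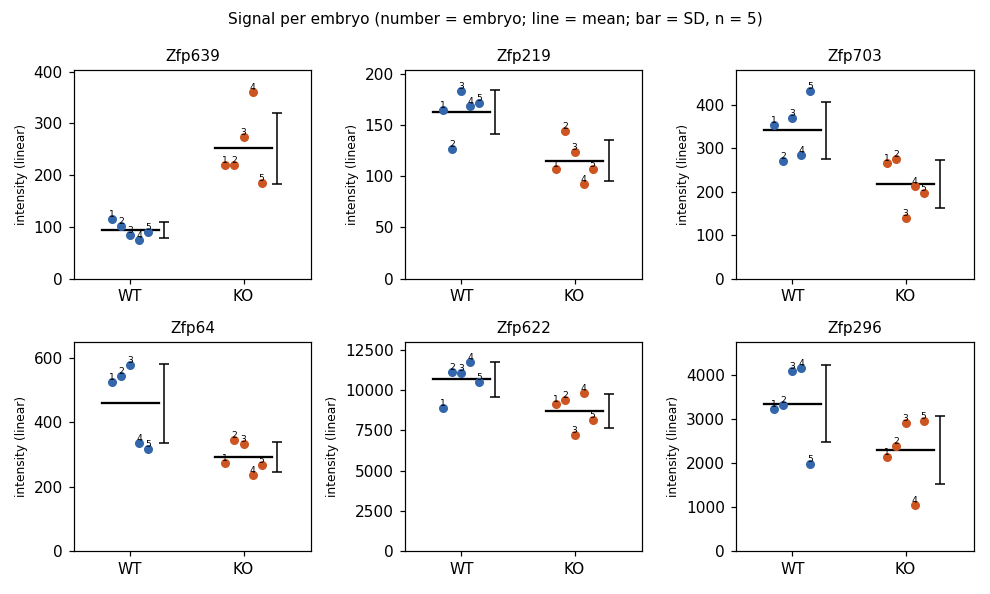
Probe set intensity on a linear axis in each of the 5 WT and 5 KO embryos for 6 Zfp genes, with the embryo's number beside each point, the group mean as a line and the SD as a bar. The KO embryos of Zfp639 sit between 184 and 359.9, all above the WT embryos, while the genotypes overlap in the other 5 genes.

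The remaining 97 Zfp genes did not pass, and the smallest adjusted limma p among them was 0.226. Their directions were mixed, with 43 of the 98 higher and 55 lower in KO embryos. The median difference over the 98 was -0.05, beside 0.02 over the 7267 genes and 0.00 over all probe sets tested. It was -0.12 in the high-bioB arrays alone (-0.07 over the 7267 genes), 0.03 in the low-bioB arrays alone (0.13 over the 7267 genes) and -0.10 without WT4 and WT5 (-0.06 over the 7267 genes). In size, 64 of the 98 differed by less than 0.25, 11 by more than 0.5 (11.2%, against 16.8% of the 7267 genes) and Zfp639 alone by more than 1. For 78 of the 97 genes that did not pass, the 95% interval lay within 1 log2 unit of 0 on both sides. For the other 19 it reached further, so a change of that size lies inside their intervals.

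An unadjusted limma p under 0.05 was met by 11 of the 98 (11.2%), 4 higher and 7 lower, where the share of the 7267 genes was 14.6%. Full separation of the genotypes was met by 1 of the 98 and by 3.72% of the 7267 genes.

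**Figure D2:**
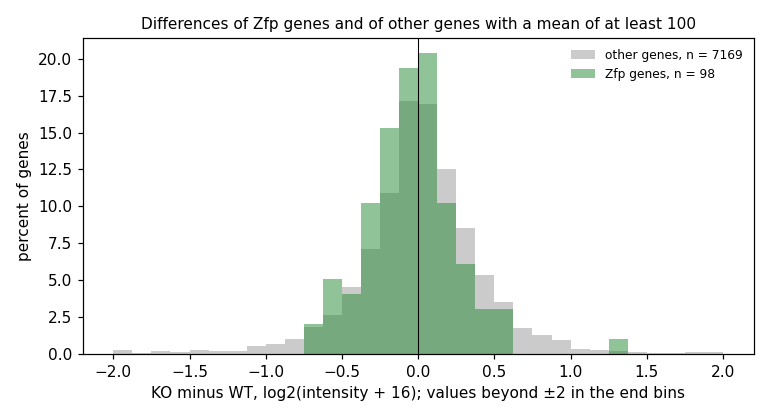
Percent of genes by KO minus WT difference on the log2(intensity + 16) scale, for the 98 Zfp genes (green) and the other 7169 genes with a mean intensity of at least 100 (grey). Both peak near 0, the Zfp median is -0.05, and the single green bar at the right holds Zfp639.

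The Zfp genes next in line were lower in KO embryos, and none passed the test. Zfp219, a transcription factor of the C2H2 type, read 126 to 182 in the WT and 92.4 to 144 in the KO embryos, with a difference of -0.45 (SE 0.13, adjusted p = 0.226). WT2, at 126, fell inside the range of the KO embryos. Zfp703, a corepressor studied as an oncogene in luminal breast cancer, read 354, 269.9, 370.0, 285 and 431 in WT1 to WT5 and 266, 275, 139, 212 and 197 in KO1 to KO5. The ranges overlapped only between WT2 and KO2, and the difference was -0.63 (adjusted p = 0.245). Its other tested probe sets, both dimmer, differed by 0.10 and -0.04.

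Zfp64, an activator of the MLL promoter in leukaemia, showed a split among the WT embryos. It read 525, 543 and 578 in WT1 to WT3 but 337 and 317 in WT4 and WT5, inside the KO range of 237 to 347. Its difference was -0.60 over all embryos (adjusted p = 0.272), -0.80 in the high-bioB and -0.23 in the low-bioB arrays. Without WT4 and WT5 it was -0.89 (adjusted p = 0.0518). The part of these arrays in the result was not tested. Zfp566 had the most negative difference of the 98, at -0.66 (adjusted p = 0.332), with 107 to 224 in the WT and 58.6 to 149 in the KO embryos. Its KO mean of 95.2 was under the signal threshold, which it passed through a WT mean of 158.

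The other 6 of the 10 on the lower side were Zfp622, Zfp335, Zfp991, Zfp296, Zfp511 and Zfp341, with differences of -0.58 to -0.28 and adjusted limma p of 0.419 to 0.685. The other 9 of the 10 on the higher side were Zfp653 (0.35), Zfp746 (0.40), Zfp579 (0.56), Zfp512 (0.53), Zfp532 (0.36), Zfp617 (0.34), Zfp692 (0.26), Zfp771 (0.43) and Zfp239 (0.59), with adjusted limma p of 0.419 to 0.756. Zfp653 and Zfp512 passed the signal threshold through KO means of 117 and 129, with WT means of 88.7 and 84.7. Zfp991 passed it through a WT mean of 129, with a KO mean of 97.9. Zfp746 encodes PARIS, a repressor of the gene for the coactivator PGC-1 alpha, and was even in KO embryos, at 333 to 416, while 3 of the 5 WT embryos read 243 or less and the highest 371. Zfp579 read 174 to 422 in the WT and 300.4 to 546 in the KO embryos, and WT4 alone of the WT embryos lay above the lowest KO embryo. Zfp239 spread from 96.2 to 553 among WT embryos. Leaving out WT4 and WT5 took the Zfp239 difference to 0.24 and that of Zfp512 to 0.85, and neither passed.

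**Figure D3:**
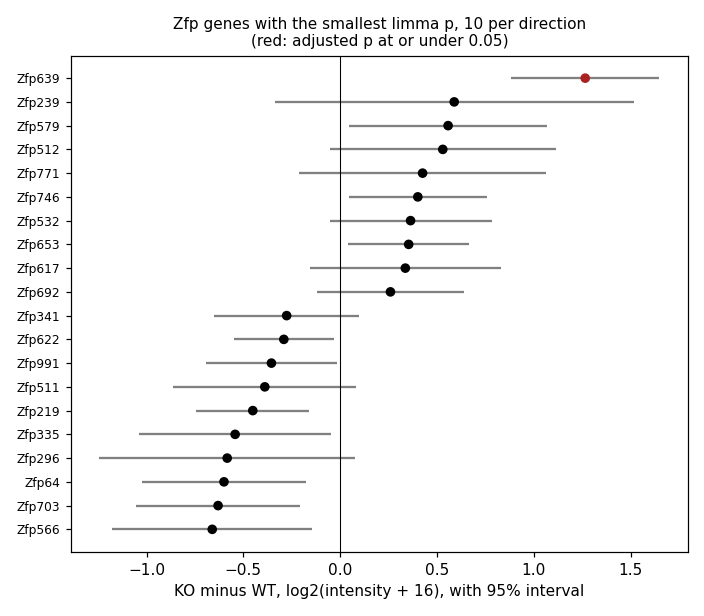
KO minus WT difference on the log2(intensity + 16) scale, with its 95% interval, for the 10 higher and 10 lower Zfp genes with the smallest limma p. The red point, Zfp639 at 1.27, is the only one past an adjusted p of 0.05, and the black points lie between -0.66 and 0.59.

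By role, the first group holds Zfp proteins that act on RNA, ribosomes or protein fate, of which 11 of 13 listed genes were among the 98. None of the 11 passed the test, 4 being higher and 7 lower, with a median difference of -0.06. Zfp622, which acts in the last steps of large ribosomal subunit assembly, had the highest signal of all 98, at 8881 to 11744 in the WT and 7195 to 9824 in the KO embryos. Its genotypes overlapped, with WT1 below 3 of the KO embryos, and its difference was small and lower in KO (-0.29, SE 0.12, adjusted p = 0.419). Its other 2 tested probe sets were far dimmer, with means of 422 and 151, so its high signal rests on 1 probe set. They differed by -0.46 and -0.49 and did not pass. Zfp593, another factor of the large ribosomal subunit, spread from 1000.3 to 3393 among WT and from 1163 to 2817 among KO embryos (difference 0.08). Zfp598, the ubiquitin ligase that marks collided ribosomes, read 702 to 1338 in the WT and 675 to 1073 in the KO embryos (difference -0.21), and WT4 and WT5 were the lowest WT embryos. Without them the Zfp598 difference was -0.48 and did not pass.

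Zfp207, a spindle and kinetochore protein also called BuGZ, had a direction that turned without WT4 and WT5. Its WT values were 458, 439, 259, 177 and 130.0 and its KO values 504, 411, 296, 322 and 264. The difference was 0.39 over all embryos (adjusted p = 0.823) and -0.09 without WT4 and WT5. Zfp91, a ubiquitin ligase, spread from 503 to 1391 among WT embryos (difference 0.01, and 0.33 without WT4 and WT5), and Zfp330, a nucleolar protein, from 397 to 801 (0.32). Zfp346, which binds double-stranded RNA, was even among WT embryos, at 254 to 331 (difference -0.11). The RNA-binding protein Zfp106 (-0.11), the splicing factor Zfp830 (-0.28), the mRNA decay factor Zfp36, also called tristetraprolin (-0.06), and the SUMO ligase Zfp451 (-0.05) did not pass either. Other tested probe sets differed by -0.15 and -0.19 for Zfp207, by -0.48 for Zfp91 and by -0.53 to -0.30 for Zfp106. Those of Zfp346 and Zfp451 differed by -0.07 and -0.04. None of these other probe sets passed.

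The second group holds proteins linked to imprints or retroelements, of which 5 of 7 listed genes were among the 98. It is a short list of names and not the KRAB-bearing Zfp genes, which were not identified here. None of the 5 listed genes passed the test, and 4 of the 5 were lower, with a median difference of -0.40. They had the largest spread between embryos of the role groups (median SE 0.37). Zfp568, which represses a placental Igf2 transcript, read 739 to 1545 in WT embryos and 579 to 1244 in KO embryos (difference -0.40, adjusted p = 0.712), and the difference was -0.62 without WT4 and WT5. KO1 stood at 1244 and the other KO embryos between 579 and 679.9. Zfp809, which silences murine leukaemia virus in embryonic cells, read 150.5 to 585 in the WT and 138 to 386 in the KO embryos (difference -0.60, adjusted p = 0.718).

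Zfp932, a silencer of endogenous retroviruses, differed by -0.42, with KO2 at 527 above all WT embryos and KO1, KO3 and KO4, at 151 to 254, below all of them. Zfp445, a keeper of imprints, read 175 to 540.1 in the WT and 225 to 625 in the KO embryos (difference 0.11). Zfp638, which acts with the HUSH complex on unintegrated retroviral DNA, was at 297 and 179.7 in WT1 and WT2 and at 51.7 to 62.4 in the other WT embryos. It passed the signal threshold through those WT embryos and KO2 (148), and its difference was -0.27 (adjusted p = 0.940), or -0.80 without WT4 and WT5. Zfp57, the best known imprint-keeping member of the family, had a mean of 55.0 and was not among the 98.

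The third group holds regulators of transcription, of which 14 of 26 listed genes were among the 98. Zfp639 rose, 0 fell and 13 did not pass. The median difference was -0.09. Zfp296, which raises the efficiency of reprogramming to pluripotency, read 1984 to 4148 in the WT and 1057 to 2961 in the KO embryos (difference -0.58, adjusted p = 0.581). WT5 was the lowest WT embryo and KO4 the lowest of all, and the other 4 WT embryos were above every KO embryo. Zfp335, a cofactor of histone H3 methyltransferase complexes, read 549 to 1134 in the WT and 333 to 654 in the KO embryos (difference -0.54, adjusted p = 0.435). Zfp217, a corepressor that works with CtBP, differed by -0.50 (adjusted p = 0.686), with KO1 at 69.9 far below the other 4 KO embryos (172 to 246). In the low-bioB arrays its difference was 0.02, and in the high-bioB arrays, which hold KO1, it was -1.02.

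Zfp281, a regulator of the exit from naive pluripotency, read 86.4 to 207 in the WT and 76.1 to 255 in the KO embryos (difference -0.02). Zfp148, a binder of GC-rich promoters, differed by -0.29. All 4 of its other tested probe sets were also lower, at -0.50 to -0.04, and did not pass. Zfp410, the activator of Chd4, differed by 0.09 over all embryos and by -0.25 without WT4 and WT5, and WT5 at 191 was its lowest embryo. Zfp131 (-0.02), Zfp277 (-0.16), Zfp532 (0.36) and Zfp592 (0.00), of which the last pair are partners of ZMYND8, did not pass. Without WT4 and WT5 the differences of Zfp131 and Zfp277 were -0.38 and -0.46, and neither passed.

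**Figure D4:**
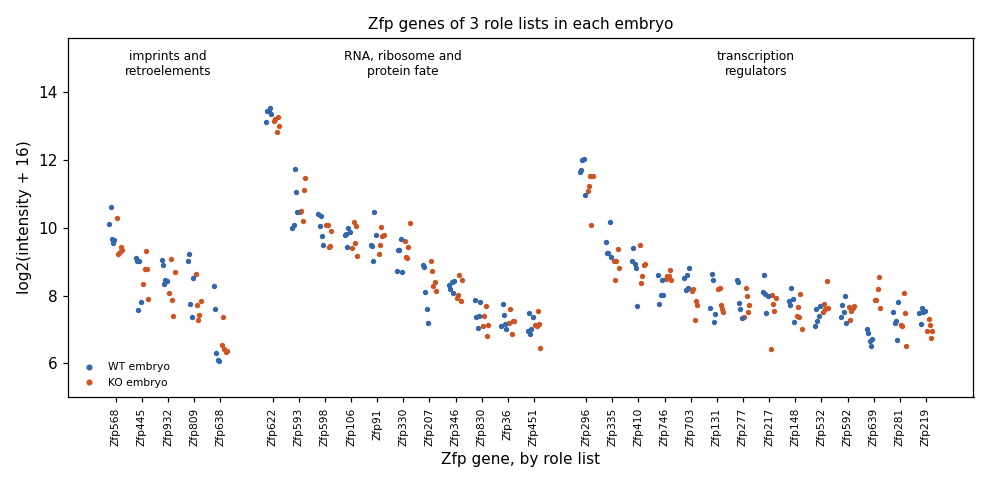
Level on the log2(intensity + 16) scale of the Zfp genes of the 3 role groups, with each WT (blue) and KO (orange) embryo as a point. Zfp639 is the only gene whose colours do not overlap.

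The 68 Zfp genes in none of these groups held no call, with 33 higher, 35 lower and a median difference of -0.02. The role lists were written with earlier results of these data known, so their counts are a description.

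In order of signal, Zfp622 was followed by Zfp574 (mean 3223), Zfp296 (2819), Zfp593 (1793), Zfp110 (1618), Zfp655 (1496), Zfp598 (965), Zfp568 (869.7), Zfp106 (848) and Zfp91 (816). Probe sets bind with different efficiency, so this order is one of signals and not of transcript amounts. Other tested probe sets of the same gene had far lower means for Zfp622 (422 and 151), Zfp574 (218) and Zfp593 (101). For Zfp110 the next brightest had a mean of 1310. The ranges over embryos of neighbours in it overlapped, with the exception of Zfp622 and Zfp574. Zfp574 read 2914 to 4103 in the WT and 2075 to 4038 in the KO embryos (difference -0.28). Zfp110, which binds the neurotrophin receptor p75, differed by 0.10, and Zfp655 by -0.18. In all, 6 genes had a mean of at least 1000, 18 of at least 500 and 48 of at least 200. The last inside the threshold were Zfp638 (107), Zfp653 (103) and Zfp871 (100.2), and the first outside were Zfp652 (98.3), Zfp81 (96.8) and Zfp213 (96.4). The threshold was reached by 33.8% of the Zfp genes and by 42.9% of all 16936 genes, a difference that was not tested.

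**Figure D5:**
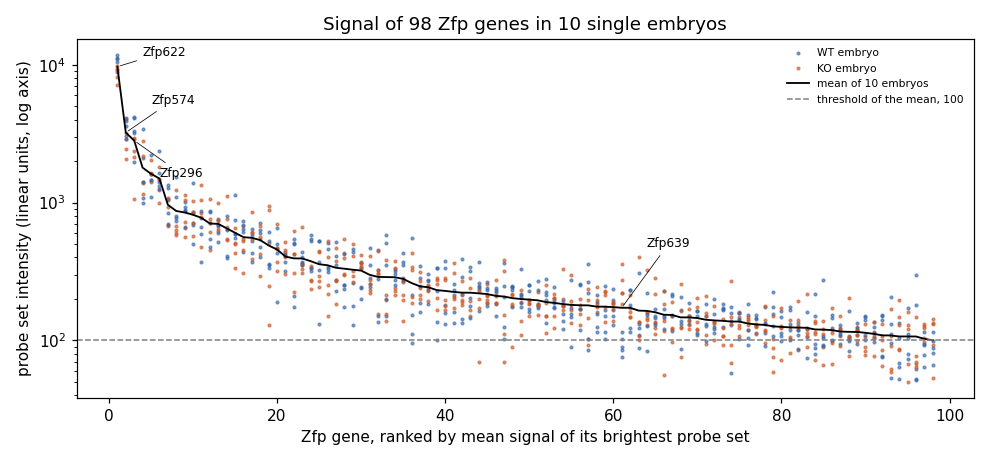
Intensity on a log axis of the 98 Zfp genes ranked by their mean (black line), with each WT (blue) and KO (orange) embryo as a point and the threshold of 100 dashed. Zfp622 leads with a mean of 9693, and the colours mix along the curve except at Zfp639.

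Embryos of the same genotype varied, and about as much at Zfp genes as at others. The median SD was 0.36 among WT and 0.36 among KO embryos, beside 0.37 and 0.34 over the 7267 genes. The embryos of 1 genotype spanned more than 1 log2 unit at 37 Zfp genes in WT and at 44 in KO. In WT embryos the widest spread was that of Zfp638, Zfp239 and Zfp775 (SD 1.02, 0.94 and 0.81). In KO embryos it was that of Zfp982, Zfp936 and Zfp292 (SD 1.17, 0.94 and 0.75). Zfp982 ran from 129.7 in KO5 to 939 in KO4 and from 334 to 609 in WT embryos. Zfp775 was at 220.1 to 356 in WT1 to WT3 and at 103 and 84.8 in WT4 and WT5. Leaving out WT4 and WT5 took the Zfp775 difference from -0.29 to -0.85 and that of Zfp936 from -0.12 to -0.57. It took that of Zfp292 from 0.14 to 0.45 and that of Zfp982 from 0.02 to 0.29. None of these passed.

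WT4 and WT5 were both below the other 8 embryos at 10 Zfp genes (10.2%) and both above them at 2 (2.04%). Over the 7267 genes those shares were 14.5% and 4.68%, and the median WT4 and WT5 minus WT1 to WT3 difference was -0.15 for the Zfp genes and -0.16 for the 7267 genes. Averaged over embryos, the median Zfp level came to 7.71 ± 0.20 (SD, n = 5) for WT and 7.72 ± 0.09 (SD, n = 5) for KO. The KO medians, 7.64 to 7.85, lay inside the WT range of 7.46 to 7.89.

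Where a gene had further probe sets, they served as a second reading. Of 35 Zfp genes with at least 1 other tested probe set, 20 had all of them in the direction of the brightest. None of those 55 probe sets passed. For 53 of the 98 the table held 1 probe set only. The brightest probe set of 5 genes (Zfp622, Zfp593, Zfp110, Zfp771 and Zfp982) carries the Affymetrix suffix for probes that may match unrelated transcripts. Another 7, those of Zfp410 and Zfp292 among them, carry the suffix for probes shared by several transcripts. The values of these genes are uncertain to that extent.

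Zfp genes often lie in clusters, and in GRCm38.p6 the 98 held 9 pairs of adjacent protein-coding genes. In 4 of the 9 pairs both genes differed in the same direction. The pair Zfp637 and Zfp239 differed by 0.18 and 0.59, Zfp617 and Zfp961 by 0.34 and 0.24, and Zfp809 and Zfp599 by -0.60 and -0.24. The pair Zfp777 and Zfp746 differed by -0.05 and 0.40.

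A further list held genes of KRAB corepression and of wider chromatin silencing, Dnmt1, Uhrf1 and Dppa3 among them. It is not a list of KRAB partners alone. Of its 22 genes 20 were tested, and 0 passed in either direction by limma after adjustment. An unadjusted limma p under 0.05 was met by 3 of the 20 and by 14.6% of the 7267 genes. Of the 20, 16 (80.0%) were higher, with a median difference of 0.17, beside 52.1% and 0.02 over the 7267 genes. Without WT4 and WT5, 10 were higher and 10 lower and the median was -0.0039, beside -0.06 over the 7267 genes. The median was 0.12 in the high-bioB arrays (-0.07 over the 7267 genes) and 0.38 in the low-bioB arrays (0.13 over the 7267 genes). Of the 20, 17 had a mean intensity of at least 100. In size, 12 of the 20 differed by less than 0.25, Trim28 among them at 0.06 (SE 0.09). The 4 lower genes were Hdac1 (-0.25), Hdac2 (-0.19), Setdb1 (-0.07) and Morc2a (-0.01). The 3 genes given next had the smallest limma p of the 20, so they do not stand for the list. Mphosph8, a HUSH subunit that reads methylated histone H3, went from 10.90 ± 0.28 (SD, n = 5) in WT to 11.35 ± 0.16 in KO (difference 0.45, adjusted p = 0.271). Smarcad1, a chromatin remodeller that binds Trim28, differed by 0.79 (adjusted p = 0.300) and Pphln1, another HUSH subunit, by 0.71 (0.458).

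Other families of zinc finger genes held no call. They were not held to the signal threshold, which 22 of 34 Zbtb, 3 of 7 Zscan and 3 of 6 Zkscan genes reached. Of 34 Zbtb genes tested, which join the fingers to a BTB domain, 0 passed. An unadjusted limma p under 0.05 was met by 5 of the 34 (14.7%), beside 14.6% of the 7267 genes. The median Zbtb difference was -0.08, or -0.13 without WT4 and WT5. Zbtb17, the Myc partner Miz-1, differed by -0.50 (adjusted p = 0.155), Zbtb14 by -0.65 (0.331) and Zbtb22 by 0.50 (0.376). Of 7 Zscan genes 0 passed (0 unadjusted), with a median of -0.12, or 0.01 without WT4 and WT5, and the smallest p at Zscan18 (0.58), Zscan26 (0.55) and Zscan10 (-0.50). Of 6 Zkscan genes 0 passed (0 unadjusted), with a median of 0.08, or 0.10 without WT4 and WT5, and the smallest p at Zkscan8 (0.47), Zkscan6 (0.13) and Zkscan1 (0.12).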

How the data were processed

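Per the labels, cDNA of single embryos was made after Kurimoto and colleagues, labelled with biotin and hybridised to Affymetrix arrays. That method amplifies the 3′ ends of transcripts, so probe sets further from the 3′ end can read low. Per the series' description, GeneSpring GX was used. The deposited values were probe set intensities on a linear scale, as judged from the values; how they were background-corrected, summarised and scaled is not stated there. The table held 38676 probe sets, 53 of them controls, which were left out. Of the rest 30854 had 1 gene symbol, 781 several and 6988 none, by the platform annotation.

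The scale used was log2(intensity + 16), on which probe sets with a mean below the 40th percentile (5.55) were left out, which left 23174, among them all 98 Zfp genes. KO was set against WT in limma 3.58.1 under R 4.3.3 (two-sided moderated test, Benjamini-Hochberg over all 23174, threshold 0.05), checked on simulated data. Genes named are those past the test, the 10 of smallest p per direction, the 10 brightest, those in the role lists, the 3 either side of the threshold and the 3 most variable per genotype. Pairs of neighbours, probe sets and promoters were described beyond that rule. Members and lists were chosen with earlier results of these data known. Alternatives covered normalization, filter, pseudocount, variance prior, array weights, blocks, arrays left out and the signal threshold. Protein features were planned and not analysed here.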

Additional observations from a re-analysis of the deposited data

Results flagged for a closer look

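Among 100 groups of 5 embryos (50 named Zfp genes in each genotype), 7 held an embryo whose gap to its nearest neighbour took more than 0.71 of the group's range, where chance gives about 1 in 20. Some of the 50 genes were named for their spread, Zfp292 in KO embryos among them, so that rate does not strictly hold here. Values are on the log2(intensity + 16) scale. KO4 was high for Zfp532, at 8.43 against 7.51 to 7.74 in the other KO embryos, and low for Zfp511, at 6.71 against 7.60 to 7.87. KO2 was high for Zfp638, at 7.36 against 6.33 to 6.54, and for Zfp292, at 8.71 against 6.86 to 7.26. KO1 was high for Zfp568, at 10.30 against 9.22 to 9.44. WT2 was low for Zfp219, at 7.15 against 7.50 to 7.63, and WT3 was low for Zfp511, at 7.58 against 7.95 to 8.04.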

How the results depend on the processing

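Zfp639 kept its direction in all 23 alternative fits. Its call was kept under both normalizations, both filters, both pseudocounts (1.39 with 1, 0.98 with 64), the variance prior, array weights, the bioB block and every fit without a single embryo, and with it the count of 1 called Zfp gene. That count fell to 0 in the high-bioB arrays alone (Zfp639 adjusted p = 0.237), the low-bioB arrays alone (0.140), without both WT4 and WT5 (0.0682), and at a signal threshold of 200, which Zfp639 does not reach. At an unadjusted limma p under 0.05 those first 3 fits held 7, 12 and 13 of the 98 (7.14%, 12.2% and 13.3%), beside 12.9%, 22.2% and 17.6% of the 7267 genes. The count was also 0 with a replicate block, which takes the number of each embryo as a term (Zfp639 1.27, adjusted p = 0.116, with 12 of the 98, 12.2%, at an unadjusted limma p under 0.05, beside 15.3% of the 7267 genes). The labels do not say whether the numbers pair the embryos. Same-numbered deviations correlated at -0.033, 0.148, -0.002, 0.176 and 0.006, and 2 of 5 WT embryos correlated best with their own number. With so few embryos these values cannot settle whether there was a pairing. Fully separated Zfp genes numbered 2 under quantile normalization, 9 without both WT4 and WT5, 21 in the high-bioB and 29 in the low-bioB arrays, and 1 to 3 without single embryos. Over the 7267 genes 11.2%, 27.5% and 38.0% were separated in the 3 fits on fewer embryos. In the related families the count stayed at 0. Of the 50 named genes 26 kept their direction throughout, and none gained a call. The signs that turned, all of genes that did not pass, were as follows. Under quantile normalization they were Zfp91 (-0.027), Zfp592 (-0.010) and Zfp982 (-0.0051), and with array weights Zfp410 (-0.022). With the bioB block they were Zfp91 (-0.12), Zfp131 (0.13), Zfp592 (-0.014), Zfp36 (0.0032), Zfp936 (0.067) and Zfp982 (-0.094). In the high-bioB arrays they were Zfp617 (-0.066), Zfp692 (-0.0046), Zfp593 (-0.14), Zfp106 (0.11), Zfp410 (-0.17), Zfp445 (-0.0086), Zfp592 (-0.068) and Zfp451 (0.029). In the low-bioB arrays they were Zfp771 (-0.051), Zfp655 (0.057), Zfp91 (-0.26), Zfp346 (0.048), Zfp131 (0.28), Zfp277 (0.27), Zfp217 (0.016), Zfp281 (0.12), Zfp36 (0.038), Zfp638 (0.29), Zfp775 (0.54), Zfp292 (-0.70), Zfp936 (0.25) and Zfp982 (-0.22). Without both WT4 and WT5 they were Zfp410 (-0.25) and Zfp207 (-0.093). Without single embryos the ranges of those that turned were -0.24 to 0.010 (Zfp106), -0.013 to 0.24 (Zfp110), -0.19 to 0.16 (Zfp131), -0.22 to 0.17 (Zfp281), -0.18 to 0.41 (Zfp292), -0.15 to 0.059 (Zfp36), -0.17 to 0.25 (Zfp410), -0.12 to 0.29 (Zfp445), -0.17 to 0.11 (Zfp451), -0.089 to 0.11 (Zfp592), -0.11 to 0.34 (Zfp593), -0.47 to 0.083 (Zfp638), -0.14 to 0.22 (Zfp91), -0.39 to 0.16 (Zfp936) and -0.26 to 0.42 (Zfp982). The cause was not tested.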

Other observations

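Among the Zfp genes under the signal threshold, Zfp667 had the smallest p. It read 198, 162, 51.9, 70.7 and 58.1 in WT1 to WT5 and 17.2, 23.6, 21.8, 20.9 and 26.1 in KO1 to KO5, so the genotypes did not overlap. Its difference was -1.55 (adjusted p = 0.0777), and with a pseudocount of 1 in place of 16 it passed, at -2.05 (adjusted p = 0.0452). With a pseudocount of 64 it was -0.92 (0.171), and without WT4 and WT5 it was -1.86 (0.0728). Zfp438 (-0.54, adjusted p = 0.191) and Zfp160 (0.81, 0.192) followed and did not pass. The mean of Zfp667 was 65.0, and its KO level of 5.24 lies under the filter level of 5.55. It was chosen after its values were seen.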
